A study of Mus musculus with 8 samples.

Results

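The genes described here are 10 targets of the transcription factor NRF2 that the liver uses against oxidants and reactive chemicals: Gclc, Gclm, Srxn1, Txnrd1, Prdx1, Nqo1, Hmox1, Cbr3, Ephx1 and Aox1. They were taken by name, as known targets, from the 19321 genes that the array's probes name, and each is read by the probe with the highest mean over the 8 arrays. Every animal of the series, those on the control diet included, was given the carcinogen DMBA when 4 to 5 days old and then kept for 30 weeks on a normal diet or a high fat diet. The arrays hold liver of 2 mice on the normal diet (mice 117 and 120), and non-tumour tissue and tumour tissue from the livers of 3 mice on the high fat diet (mice 117, 186 and 1). The non-tumour and tumour samples of 1 number come from the same liver, whereas number 117 on the normal diet is another animal. The labels give neither strain nor sex nor how the tissues were dissected, and no liver without DMBA was analysed here. In bulk tissue of this kind, fewer cells of a type and less RNA per cell cannot be told apart.

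NRF2, encoded by Nfe2l2, is held at a low level by KEAP1, which hands it to a CUL3 ubiquitin ligase. Oxidants and electrophiles modify KEAP1, NRF2 then accumulates, pairs with a small MAF protein and binds antioxidant response elements, while BACH1 competes for the same elements as a repressor. The targets make glutathione, keep thioredoxin and peroxiredoxins reduced, degrade heme and clear quinones, epoxides, aldehydes and other reactive molecules.

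RefSeq promoter windows on build GRCm38.p6, each reaching from 250 bases before to 50 bases after a transcription start, were at hand for 8 of the 10 genes (not for Hmox1 and Gclc). The letters TGACNNNGC, the core of the antioxidant response element, were searched on both strands, and no other motif was searched. They occurred in a window of 4 of the 8 genes (50%), against 14.0% of all 27025 genes of the table, and in 4 of the 10 windows (3 of which are alternative starts of Txnrd1) against 12.4% of 32851. The 4 windows with a match are shown so that the match can be read beside the values of these genes: Srxn1 was called higher, Gclm lower, and Prdx1 and Txnrd1 were not called in any of the comparisons. Each is written 5′ to 3′ on the gene's strand with the match in capitals. In all 4 the matched letters lie on the opposite strand, so the capitals are their reverse complement. The windows are Srxn1 at chr2:152105274-152105573, Gclm at chr3:122245307-122245606, Prdx1 at chr4:116685349-116685648 and Txnrd1 at chr10:82858956-82859255, all on the plus strand.
Srxn1: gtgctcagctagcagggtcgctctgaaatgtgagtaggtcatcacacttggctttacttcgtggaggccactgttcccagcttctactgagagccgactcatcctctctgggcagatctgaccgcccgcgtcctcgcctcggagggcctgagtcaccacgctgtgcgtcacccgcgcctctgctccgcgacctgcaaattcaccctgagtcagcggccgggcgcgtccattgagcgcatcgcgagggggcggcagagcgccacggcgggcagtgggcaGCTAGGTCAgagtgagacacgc
Gclm: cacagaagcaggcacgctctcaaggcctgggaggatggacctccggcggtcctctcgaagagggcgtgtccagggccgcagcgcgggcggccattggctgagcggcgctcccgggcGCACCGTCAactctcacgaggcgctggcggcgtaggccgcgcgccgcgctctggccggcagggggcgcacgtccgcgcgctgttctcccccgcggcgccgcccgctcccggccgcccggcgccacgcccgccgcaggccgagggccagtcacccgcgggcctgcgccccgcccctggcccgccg
Prdx1: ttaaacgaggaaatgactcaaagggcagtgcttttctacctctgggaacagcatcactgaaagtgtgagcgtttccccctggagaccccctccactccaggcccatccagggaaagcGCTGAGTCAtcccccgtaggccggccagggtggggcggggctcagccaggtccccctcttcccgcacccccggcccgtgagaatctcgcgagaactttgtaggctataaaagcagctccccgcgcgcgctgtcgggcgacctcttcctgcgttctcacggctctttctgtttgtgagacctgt
Txnrd1: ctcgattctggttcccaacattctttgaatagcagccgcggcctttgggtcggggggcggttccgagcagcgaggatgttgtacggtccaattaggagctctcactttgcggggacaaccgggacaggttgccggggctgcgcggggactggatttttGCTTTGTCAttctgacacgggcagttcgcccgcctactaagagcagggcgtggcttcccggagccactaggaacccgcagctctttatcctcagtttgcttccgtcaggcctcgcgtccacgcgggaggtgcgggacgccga
Counted with the start base as 1, the match begins at base 29 in Srxn1, and in Gclm, Prdx1 and Txnrd1 it lies before the start, with its first base at -134, -133 and -92. A match is a description of these letters, and so is its absence from the windows of Nqo1, Ephx1, Cbr3 and Aox1.

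All 10 genes had a value on all 8 arrays. Levels are given as the deposited intensity, which has a median of 25 on each array, and differences as log2 fold changes from limma on quantile-normalised signals, with adjusted p-values (Benjamini-Hochberg over 16800 genes, called below 0.05). The 2 scales differ for bright genes: the 95th percentile of the deposited values was 1013 to 1035 in normal diet liver, 902 to 922 in non-tumour tissue and 679 to 787 in tumour, and quantile normalization evens this out. Arrays correlated at 0.984 to 0.996 within groups and at 0.919 to 0.983 between groups. The 8 hepatocyte markers, Alb and Apoa1 among them, were listed on every array, with a summed intensity of 184560 to 188780 in normal diet liver, 149453 to 150179 in non-tumour tissue and 163486 to 175873 in tumour. Of the 8, Apoa1 and Serpina1a were called higher and Cps1 and Pck1 lower in tumour than in non-tumour tissue (median log2 difference 0.10). With the mouse number as a block 3 were called higher and 1 lower. Of 5 cholangiocyte markers tested, Tspan8 alone was called higher in tumour than in non-tumour tissue (median log2 difference of the 5, 0.04), while their sum was 89 to 149 in non-tumour tissue and 2080 to 4778 in tumour. Of 6 tested markers of other tissues, Cela1 and Msln were called higher (median 0.01), with sums of 252 to 283 and 809 to 1181. The part of these genes' sources in the results below was not tested. Values for a group follow the mouse order 117 and 120, or 117, 186 and 1.

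No comparison called all 10 genes. Their estimates took both directions in tumour against either other group, and all 10 lay above 0 in non-tumour tissue against normal diet liver. Between tumour and non-tumour tissue, Aox1, Ephx1 and Gclm fell in tumour and none of the 10 passed the test upward (1, Srxn1, had an unadjusted p below 0.05 in limma). Between non-tumour tissue and normal diet liver, Srxn1 and Ephx1 rose and none fell (8 rises and 0 falls had an unadjusted p below 0.05 in limma). The share of all genes below this unadjusted cutoff was not counted for either comparison. Between tumour and normal diet liver, Srxn1, Cbr3 and Gclc rose, and Aox1 and Gclm fell. Srxn1 was thus called higher in both high fat diet tissues than in normal diet liver. Ephx1 was called higher in non-tumour tissue than in normal diet liver, and lower in tumour than in non-tumour tissue of the same livers. Between tumour and normal diet liver Ephx1 was not called.

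The 3 falls in tumour against non-tumour tissue stand beside 13.4% of all tested genes called lower and 12.0% called higher, and the median log2 difference was -0.27 over the 10 genes and -0.01 over all genes. With the mouse number as a block, which pairs the tissues of each liver, Hmox1 was also called lower, making 4. For non-tumour tissue against normal diet liver the 2 rises stand beside 1.81% of all genes called higher and 2.02% called lower. With arrays scaled to the same median 7 of the 10 rose, beside 1084 higher and 319 lower calls over all genes, and without normal diet mouse 117 or without 120 the count was 0. The median was 0.49 over the 10 genes and -0.01 over all genes. In that comparison all 10 estimates were above 0, as were 47.2% of all genes. On the deposited scale (pseudocount 16) 8 of the 10 and 35.1% of all genes were above 0. For tumour against normal diet liver the 3 rises and 2 falls stand beside 12.9% of all genes called higher and 15.0% called lower, with a median of 0.14 over the 10 genes. On the deposited scale (pseudocount 16) the balance turned, to 2 rises and 4 falls with a median of -0.18. Over all genes there were 1512 higher and 3727 lower calls on that scale, with a median of -0.08. Fewer of the 10 were called without normal diet mouse 117 or 120, which leaves 1 normal diet liver. The 3 comparisons share samples and are not independent of each other.

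**Figure D1:**
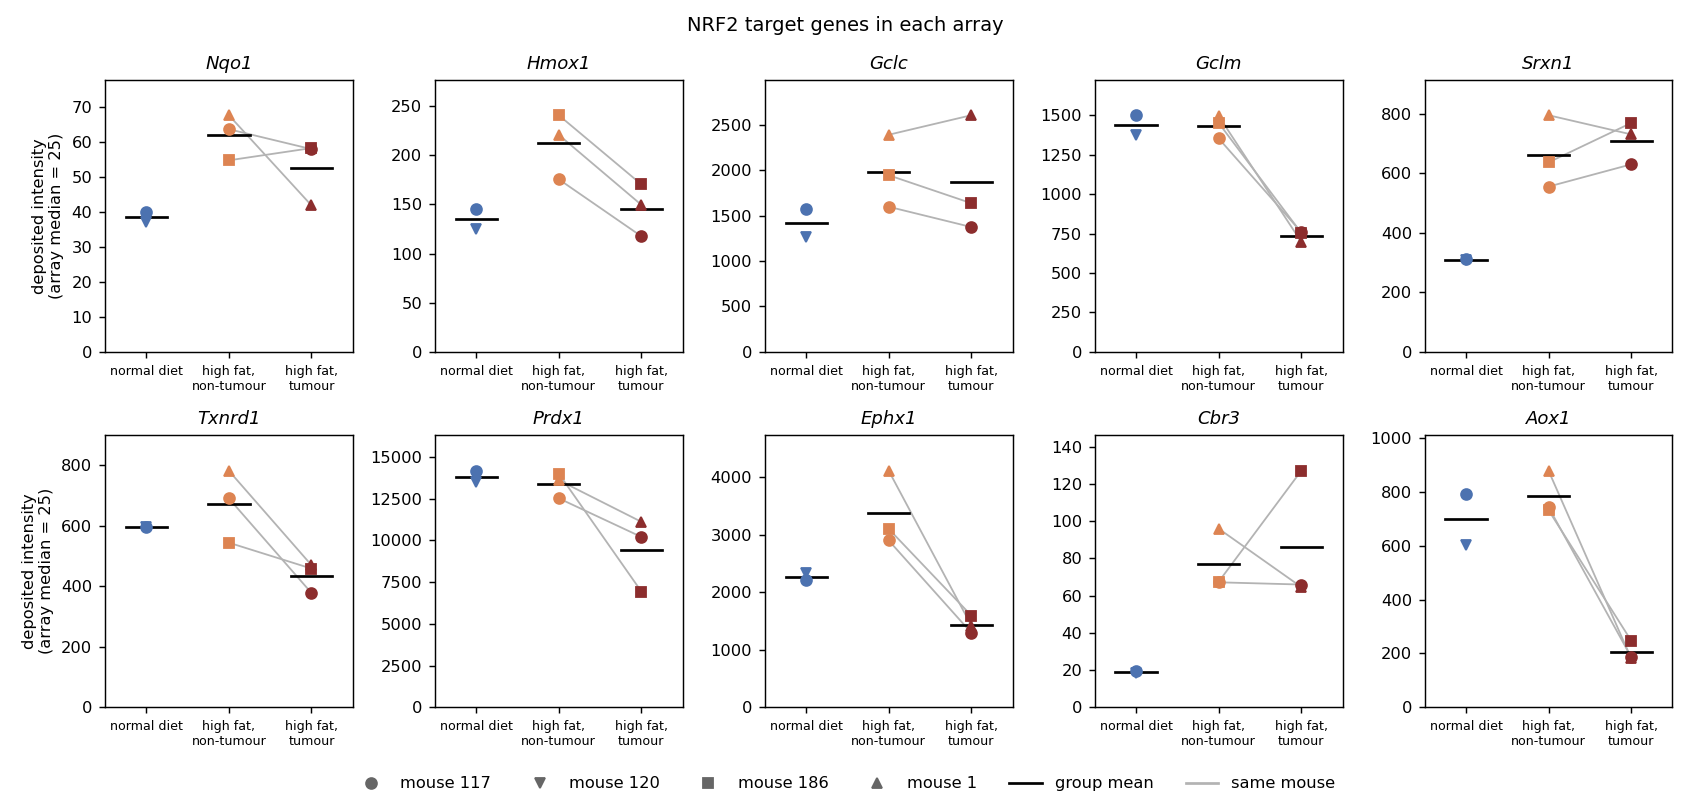
Deposited intensity (linear axis from 0, its own scale for each gene; median of each array 25) of the 10 genes on every array, by group, with a marker shape for each mouse number (117 on the normal diet is another animal than 117 on the high fat diet), group means as bars and grey lines joining the non-tumour and tumour tissue of 1 liver. Aox1, Gclm and Ephx1 lie lower in all 3 tumours than in all 3 non-tumour samples, and Srxn1 and Cbr3 lie higher in all 6 high fat diet samples than in both normal diet livers.

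Glutathione synthesis begins with glutamate-cysteine ligase, of which Gclc is the catalytic and Gclm the modifier subunit. Gclm was called lower in tumour than in both other groups, and Gclc higher in tumour than in normal diet liver. Gclm read 1499.4 and 1376.0 in normal diet liver, 1352.4, 1450.5 and 1494.7 in non-tumour tissue and 759.4, 754.2 and 697.4 in tumour. All 3 tumours lay below the other 5 samples, which overlapped among themselves in the deposited values. On the quantile-normalised scale every non-tumour sample lay above both normal diet livers. The mean was 1433 ± 72.8 (SD, n = 3) in non-tumour tissue and 737 ± 34.4 (n = 3) in tumour, a log2 difference of -0.64 ± 0.07 (SE; adjusted p = 0.00171, limma). Within livers 117, 186 and 1 the tumour differed by -0.51, -0.62 and -0.78 on the log2 scale. Gclm was also lower in tumour than in normal diet liver (1438 ± 87.3, SD, n = 2), with a log2 difference of -0.40 ± 0.08 (SE; adjusted p = 0.0116, limma). That call ended without normal diet mouse 117 (0.0816) or 120 (0.0542), and the adjusted p ran from 0.000152 to 0.782 over all alternatives. Non-tumour tissue differed from normal diet liver by 0.23 ± 0.08 (SE; adjusted p = 0.171, limma), which passed with arrays scaled to the same median (0.0224) and without tumour mouse 1 (0.0395), in a range of 0.0224 to 0.999.

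Gclc read 1569.7 and 1269.8 in normal diet liver, 1598.2, 1945.4 and 2391.4 in non-tumour tissue and 1374.9, 1637.3 and 2606.3 in tumour. In the deposited values the tumours overlapped both other groups, which did not overlap each other, and mouse 1 was highest in both of its tissues. On the quantile-normalised scale every tumour lay above both normal diet livers. Tumour and non-tumour tissue differed by 0.15 ± 0.21 (SE; adjusted p = 0.685, limma). Against normal diet liver the tumours were called higher, by 0.85 ± 0.23 (SE; adjusted p = 0.0390, limma), while the deposited means were 1873 ± 649 (SD, n = 3) and 1419.8 ± 212 (n = 2). This call rested on the fit: it ended with the deposited values (adjusted p = 0.382 with a pseudocount of 16) and without normal diet mouse 117 (0.109) or 120 (0.195), non-tumour mouse 186 (0.0641), or tumour mouse 186 (0.0725) or 1 (0.0545), in a range of 0.0234 to 0.889 over all alternatives.

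Srxn1, the sulfiredoxin that restores overoxidised peroxiredoxins, gave the largest log2 difference of the 10 genes in both comparisons with normal diet liver with the offset of 50. That of Cbr3 was larger with an offset of 16, with a floor of 16 and in the deposited values. It read 311.4 and 307.3 in normal diet liver, 555.5, 637.0 and 795.3 in non-tumour tissue and 630.2, 769.2 and 730.9 in tumour. All 6 high fat diet samples lay above both normal diet livers. The non-tumour and tumour samples overlapped in the deposited values, whereas on the quantile-normalised scale every tumour lay above every non-tumour sample. Non-tumour tissue was higher than normal diet liver by 1.10 ± 0.13 (SE; 2.15-fold, adjusted p = 0.0122, limma) and tumour by 1.49 ± 0.13 (SE; 2.80-fold, adjusted p = 0.000703, limma). The first call ended without normal diet mouse 117 (0.0869) or 120 (0.0865), in a range of 0.00182 to 0.999 over all alternatives. Markers of stellate cells took a like order of groups: the 8 summed to 273 to 295 in normal diet liver, 567 to 828 in non-tumour tissue and 725 to 1426 in tumour. Of them Col3a1 alone was called higher in non-tumour tissue than in normal diet liver, and Col1a2 and Col3a1 higher and Lrat lower in tumour than in normal diet liver. Their part in the rises of Srxn1, Cbr3 and Gclc was not tested.

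Between the tissues of 1 liver, Srxn1 differed by 0.45, 0.56 and 0.15 in mice 117, 186 and 1, a mean of 0.39 ± 0.12 (SE; adjusted p = 0.0549, limma). It passed under 4 of the alternatives, among them the mean of its probes (0.0357) and leaving out non-tumour mouse 1 (0.0324), in a range of 0.0324 to 0.939. Srxn1 is the only one of the 10 genes with 2 probes. The other probe read 89.7 and 106.2 in normal diet liver, 201.0, 247.9 and 256.6 in non-tumour tissue and 327.4, 438.4 and 282.5 in tumour, so it kept the same order of groups, with every tumour above every non-tumour sample.

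Txnrd1, the cytosolic thioredoxin reductase, and Prdx1, a peroxiredoxin that thioredoxin reduces, were not called in any comparison. Txnrd1 read 593.9 and 595.4 in normal diet liver, 689.4, 543.4 and 780.6 in non-tumour tissue and 377.5, 458.0 and 469.3 in tumour. In the deposited values its 3 tumours lay below the other 5 samples, and non-tumour tissue lay on both sides of normal diet liver. Tumour differed from non-tumour tissue by -0.35 ± 0.11 (SE; adjusted p = 0.0539, limma), with -0.55, -0.03 and -0.47 within livers 117, 186 and 1. It passed without non-tumour mouse 186 (0.0144) and with the deposited values (0.0168 with a pseudocount of 16), in a range of 0.0121 to 0.996 over all alternatives. Tumour and normal diet liver differed by -0.06 ± 0.12 (SE; adjusted p = 0.738, limma) on the quantile-normalised scale, where their samples overlapped.

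Prdx1 read 14161.2 and 13474.5 in normal diet liver, 12512.8, 13988.1 and 13598.1 in non-tumour tissue and 10202.2, 6935.5 and 11106.8 in tumour. The deposited values of the tumours lay below all others, lowest in mouse 186. On the quantile-normalised scale the difference from non-tumour tissue was -0.21 ± 0.13 (SE; adjusted p = 0.309, limma), and within livers it was 0.02, -0.63 and -0.01. Against normal diet liver it was 0.02 ± 0.15 on that scale and -0.58 on the deposited scale with a pseudocount of 16, where it passed (adjusted p = 0.0451, limma; range 0.0451 to 1 over all alternatives). For this very bright gene the direction thus turned with the scaling.

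**Figure D2:**
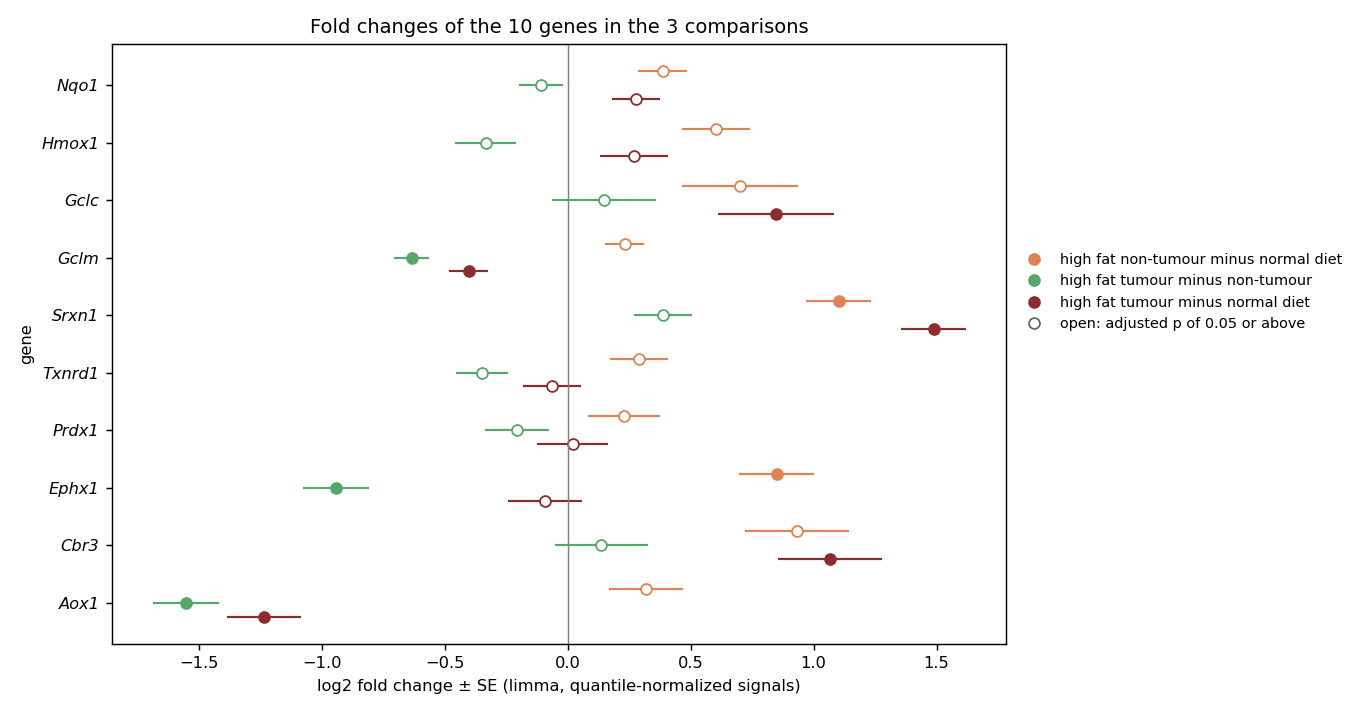
Log2 fold change of the 10 genes in the 3 comparisons (points, with bars of 1 SE from limma; filled points have an adjusted p below 0.05, open points do not). In tumour against non-tumour tissue the filled points are Aox1 at -1.56, Ephx1 at -0.94 and Gclm at -0.64, all below 0, and in non-tumour tissue against normal diet liver every point lies above 0, Srxn1 at 1.10 and Ephx1 at 0.85 filled.

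Of the genes that act on quinones, heme and carbonyls, Cbr3 was called higher in tumour than in normal diet liver, and Nqo1 and Hmox1 were called in no comparison. Cbr3, a carbonyl reductase, read 19.5 and 18.6 in normal diet liver, 67.2, 67.5 and 96.0 in non-tumour tissue and 66.0, 127.1 and 64.7 in tumour. All 6 high fat diet samples lay well above both normal diet livers, and non-tumour and tumour samples overlapped. Its dimmest spot was at 1.78 times the mean of the blank spots.

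Cbr3 was higher in tumour than in normal diet liver by 1.07 ± 0.21 (SE; adjusted p = 0.0121, limma), a call that ended without normal diet mouse 117 (0.0741) or 120 (0.0688), in a range of 0.000536 to 0.661 over all alternatives. In non-tumour tissue the difference was 0.93 ± 0.21 (SE; adjusted p = 0.0685, limma). It passed with an offset of 16 (0.0211), with the deposited values (0.0237 with a pseudocount of 16) and without tumour mouse 186 (0.0129), in a range of 0.00548 to 0.999. The offset of 50 added to each signal shrinks the fold of so dim a gene: the deposited means were 19.1 ± 0.636 (SD, n = 2), 76.9 ± 16.5 (n = 3) and 85.9 ± 35.7 (n = 3). Tumour and non-tumour tissue differed by 0.14 ± 0.19, in opposite directions in mice 186 (0.65) and 1 (-0.32).

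Nqo1, the quinone reductase often used as a readout of NRF2, read 39.9 and 37.1 in normal diet liver, 63.7, 54.8 and 67.7 in non-tumour tissue and 58.0, 58.3 and 41.9 in tumour. Both normal diet livers lay below all 6 high fat diet samples, by a small margin for the tumour of mouse 1. Non-tumour tissue differed from normal diet liver by 0.39 ± 0.10 (SE; adjusted p = 0.0943, limma), and tumour by 0.28 ± 0.10 (adjusted p = 0.0850). Without tumour mouse 1 both passed (0.0201 and 0.00679), in ranges of 0.0201 to 0.999 and 0.00679 to 0.592 over all alternatives. Within livers 117, 186 and 1 the tumour differed from non-tumour tissue by 0.01, 0.02 and -0.35.

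Hmox1, the inducible heme oxygenase, which BACH1 represses, read 145.6 and 125.5 in normal diet liver, 175.6, 240.8 and 220.8 in non-tumour tissue and 117.6, 170.4 and 149.6 in tumour. In the deposited values every non-tumour sample lay above every other sample, and the tumours overlapped normal diet liver. On the quantile-normalised scale the tumours overlapped non-tumour tissue and lay above both normal diet livers. Within livers 117, 186 and 1 the tumour differed by -0.30, -0.34 and -0.36, the most even of the 10 genes. The mean difference of -0.33 ± 0.12 (SE) had an adjusted p of 0.101 without pairing and of 0.0123 with the mouse as a block (limma), in a range of 0.0123 to 0.444 over all alternatives. Against normal diet liver, non-tumour tissue differed by 0.60 ± 0.14 (SE; adjusted p = 0.0715, limma; 0.0197 with arrays scaled to the same median, range 0.0197 to 0.999).

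Macrophages, which degrade the heme of red cells, express Hmox1. The 12 macrophage markers, all listed on every array, summed to 1735 to 2208 in normal diet liver, 2616 to 3031 in non-tumour tissue and 1282 to 1992 in tumour, and so were, like Hmox1, highest in non-tumour tissue. Of the 12, Clec4f, Cd5l and Vsig4 were called lower in tumour than in non-tumour tissue (4 with the mouse as a block, without Clec4f) and Cd5l higher in non-tumour tissue than in normal diet liver. The 4 erythroid markers on the array summed to 5714 to 7064, 8322 to 29413 and 6123 to 14465 in the same groups, and up to 1 of the 4 had no listed value on an array. Of the 3 tested, 0 were called higher and Car1 was called lower in non-tumour tissue than in normal diet liver (median log2 difference -0.23). Alas2 and Car1 were called lower in tumour than in non-tumour tissue. The part of either cell type in the Hmox1 values was not tested.

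Ephx1, the microsomal epoxide hydrolase, was highest in non-tumour tissue. It read 2210.5 and 2328.9 in normal diet liver, 2899.6, 3100.6 and 4110.5 in non-tumour tissue and 1297.0, 1596.4 and 1422.7 in tumour. The 3 groups did not overlap in the deposited values. Tumour was lower than non-tumour tissue, with a log2 difference of -0.94 ± 0.14 (SE; 0.520 times its level, adjusted p = 0.00413, limma) and of -0.87, -0.65 and -1.30 within livers 117, 186 and 1.

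Ephx1 was higher in non-tumour tissue than in normal diet liver by 0.85 ± 0.15 (SE; adjusted p = 0.0375, limma). This call was not stable. It ended with the deposited values (0.0788 with a pseudocount of 16) and without any 1 of normal diet mouse 117 (0.207) or 120 (0.168), non-tumour mouse 117 (0.0598), 186 (0.0912) or 1 (0.0624), or tumour mouse 117 (0.0630), in a range of 0.00638 to 0.999. Against normal diet liver the tumours differed by -0.09 ± 0.15 (SE; adjusted p = 0.694, limma) on the quantile-normalised scale. With the deposited values and a pseudocount of 16 they were lower (adjusted p = 0.0145, limma; range 0.0145 to 0.981 over all alternatives).

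Aox1, an aldehyde oxidase, showed the largest difference of the 10 genes between tumour and non-tumour tissue. It read 791.2 and 603.9 in normal diet liver, 742.3, 731.2 and 877.5 in non-tumour tissue and 186.9, 247.8 and 181.8 in tumour. The normal diet and non-tumour samples overlapped in the deposited values, whereas on the quantile-normalised scale every non-tumour sample lay above both normal diet livers. Each tumour lay far below the lowest other sample. The log2 difference was -1.56 ± 0.13 (SE; adjusted p = 0.000794, limma) from non-tumour tissue, with -1.56, -1.24 and -1.87 within livers 117, 186 and 1. From normal diet liver it was -1.24 ± 0.15 (SE; adjusted p = 0.00214, limma), and neither call ended when any 1 array was left out.

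Markers of pericentral hepatocytes, the cells around the central vein that carry much of the drug metabolism of the liver, were also lower in tumour. Of the 8 markers 7, among them Glul, Cyp2e1 and Cyp1a2, were called lower in tumour than in non-tumour tissue, with a median log2 difference of -2.00 (2 of the 8 with the mouse as a block). Their summed intensity was 41795 to 46104 in normal diet liver, 28627 to 38825 in non-tumour tissue and 1533 to 8353 in tumour, and up to 2 of the 8 had no listed value on an array. Between tumour and non-tumour tissue the estimate of Srxn1 was 0.39. Against normal diet liver 7 of the 8 markers were also called lower in tumour, with a median of -1.80. In that comparison Aox1 differed by -1.24 and Gclm by -0.40, while Ephx1 differed by -0.09 and was not called. The part of the pericentral cells in the falls of Aox1, Ephx1 and Gclm was not tested.

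**Figure D3:**
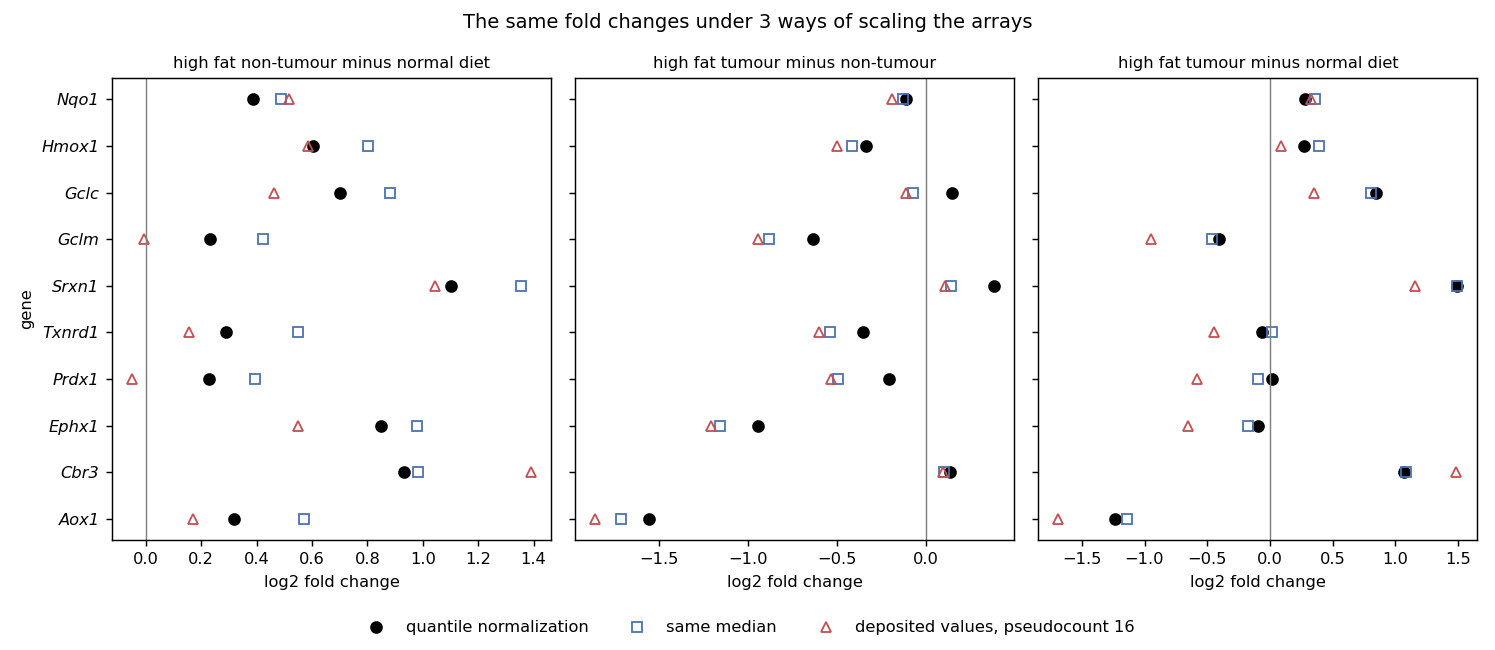
Log2 fold change of each of the 10 genes in the 3 comparisons under 3 scalings: quantile normalization, arrays scaled to the same median, and the deposited values with a pseudocount of 16. The falls of Aox1, Ephx1 and Gclm in tumour against non-tumour tissue and the rises of Srxn1 and Cbr3 against normal diet liver keep their side of 0 under all 3, whereas Prdx1 in tumour against normal diet liver moves from 0.02 to -0.58.

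Among 10 regulators of the pathway, the repressor Bach1 rose in tumour, while the genes for NRF2 and KEAP1 were called in no comparison. Bach1 read 90.1 and 80.4 in normal diet liver, 63.0, 62.8 and 44.0 in non-tumour tissue and 240.4, 167.3 and 139.2 in tumour. Every tumour lay above every other sample and every non-tumour sample below both normal diet livers. Bach1 was higher in tumour than in non-tumour tissue by 1.24 ± 0.20 (SE; adjusted p = 0.00662, limma) and than in normal diet liver by 0.96 ± 0.23 (adjusted p = 0.0231, limma). The second call ended without normal diet mouse 117 or 120, with adjusted p-values of 0.00904 to 0.152 over all alternatives.

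Of the small MAF proteins that pair with NRF2 and BACH1, Maff was called higher and Mafg lower in tumour than in non-tumour tissue. Maff read 20.8 and 34.6 in normal diet liver, 59.6, 98.0 and 40.7 in non-tumour tissue and 134.6, 133.8 and 170.5 in tumour. Tumour differed from non-tumour tissue by 0.88 ± 0.20 (SE; adjusted p = 0.0209, limma). The call for Maff ended with the mouse as a block (adjusted p = 0.0762, limma) and without non-tumour mouse 117 or tumour mouse 117 or 1, and the adjusted p ran from 0.00701 to 0.835 over all alternatives. Mafg read 126.5 and 110.5 in normal diet liver, 103.4, 98.7 and 108.3 in non-tumour tissue and 47.4, 68.8 and 57.4 in tumour. Tumour differed from non-tumour tissue by -0.50 ± 0.06 (SE; adjusted p = 0.00200, limma). Nfe2l1, a relative of NRF2, was also lower in tumour than in non-tumour tissue, with a log2 difference of -0.31 ± 0.06 (SE; adjusted p = 0.0116, limma). It read 135.9 and 105.0 in normal diet liver, 165.6, 145.4 and 174.7 in non-tumour tissue and 108.2, 111.9 and 118.4 in tumour. Nfe2l1 was called higher in non-tumour tissue than in normal diet liver, though not with the deposited values and a pseudocount of 16. It was not called between tumour and normal diet liver.

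Keap1 read 154.1 and 148.7 in normal diet liver, 118.4, 83.1 and 144.2 in non-tumour tissue and 102.6, 83.6 and 129.7 in tumour. In these deposited values both normal diet livers lay above every high fat diet sample. Tumour and non-tumour tissue differed by -0.02 ± 0.15 (SE; adjusted p = 0.948, limma). Nfe2l2 read 293.8 and 255.4 in normal diet liver, 153.6, 272.9 and 331.1 in non-tumour tissue and 172.1, 351.9 and 441.5 in tumour. The tumour had the higher value in each of the 3 livers, and the groups overlapped. The difference of 0.43 ± 0.33 (SE) had an adjusted p of 0.419 without pairing and of 0.0246 with the mouse as a block (limma), in a range of 0.0246 to 0.785. NRF2 is regulated mainly through the stability of its protein, which these arrays do not measure.

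Beside 13.4% of all genes called lower and 12.0% called higher in tumour against non-tumour tissue, 15 of 28 other NRF2 targets tested fell and 3 rose. Their median log2 difference was -0.58 against -0.01 over all genes. The largest falls were those of the carboxylesterase Ces1g (965 ± 129 to 159 ± 53.9, SD, n = 3 each), the malic enzyme Me1 (2789 ± 377 to 674 ± 82.1), the nucleotidase Entpd5 (552 ± 94.2 to 168 ± 33.0) and the UDP-glucose dehydrogenase Ugdh (2259 ± 65.1 to 743 ± 137). Their log2 differences were -2.16, -1.74, -1.34 and -1.31. The glutathione transferases Gsta2, Gsta3, Gstm1, Gstm2 and Gstm3 were also among the 15, and near-identical members of this family may share signal on an array. The 3 that rose were Pgd, of the pentose phosphate pathway, Osgin1 and Ptgr1. With the mouse as a block 13 fell and 2 rose: the calls of Gstm1, Gstm2, Gstm3 and Ptgr1 ended (adjusted p of 0.0880, 0.0533, 0.0672 and 0.0990, limma) and Gsr, the glutathione reductase, was added to the falls (0.0441). The adjusted p of these 5 genes ran from 0.00158 to 0.903 over all alternatives. The pericentral markers fell in the same samples, as given above, and their part was not tested.

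Against normal diet liver, 2 of the 28 targets, Pgd and Taldo1, rose in non-tumour tissue and none fell (10 rises and 1 fall had an unadjusted p below 0.05 in limma). The share of all genes below that unadjusted cutoff was not counted. These 2 of 28 stand beside the 1.81% of all genes called higher. With arrays scaled to the same median 9 of the 28 rose, beside 1084 higher and 319 lower calls over the 16800 genes tested. The call of Taldo1 ended without normal diet mouse 117 or 120 or non-tumour mouse 186 and with the deposited values, with adjusted p-values of 0.00824 to 0.999 over all alternatives. Both enzymes belong to the pentose phosphate pathway, which supplies NADPH. In tumour against normal diet liver 3 rose and 8 fell, beside 12.9% of all genes called higher and 15.0% called lower. On the deposited scale with a pseudocount of 16 it was 3 and 18, beside 1512 higher and 3727 lower calls over the 16800 genes tested. Pgd was the one target called higher in all 3 comparisons: it had means of 147 ± 0.849 (SD, n = 2) in normal diet liver, 226 ± 3.86 (n = 3) in non-tumour tissue and 314 ± 27.6 (n = 3) in tumour.

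Calls among the relatives of the 10 genes went in both directions, as over all genes (12.0% higher and 13.4% lower). Of 12 tested, 4 fell in tumour against non-tumour tissue (Nqo2, Txnrd2, Ephx2 and Aox3) and 2 rose (Gss and Prdx4). The rise of Gss, the glutathione synthetase, was no longer called with arrays scaled to the same median or with the deposited values. Aox3, a second aldehyde oxidase, read 5628.8 and 4289.4 in normal diet liver, 2683.4, 2341.1 and 2292.0 in non-tumour tissue and 467.9, 315.4 and 182.1 in tumour, with no overlap between the groups. Its difference between tumour and non-tumour tissue was -2.68 ± 0.33 (SE; adjusted p = 0.00249, limma), and Aox1 and Aox3 fell together there. Ephx2, the soluble epoxide hydrolase, also fell, with a log2 difference of -1.67 ± 0.24 (SE; adjusted p = 0.00427, limma).

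Nqo2 fell by 0.68 ± 0.03 on the log2 scale (SE; adjusted p = 0.000124, limma) where Nqo1 was not called. Prdx4, a peroxiredoxin of the secretory pathway, rose by 1.04 ± 0.11 (SE; adjusted p = 0.00136, limma) where Prdx1 was not called. Prdx4 read 932.0 and 796.1 in normal diet liver, 447.1, 493.9 and 466.1 in non-tumour tissue and 804.8, 706.2 and 1059.0 in tumour. Every non-tumour sample lay below every other sample. Prdx4 was called lower there than in normal diet liver (-0.61 ± 0.12, SE; adjusted p = 0.0483, limma), a call that ended without any 1 normal diet or non-tumour sample or tumour mouse 117, in a range of 0.0246 to 0.685.

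In tumour against non-tumour tissue 13.4% of all genes were called lower and 12.0% higher. Of 16 other antioxidant enzymes, 8 fell there and none was called higher, with a median of -0.35 over the 16. In limma 1 rise and 9 falls had an unadjusted p below 0.05, a cutoff whose share of all genes was not counted. The 8 called lower were the superoxide dismutases Sod1 and Sod2, Cat, Glrx, Glrx5 and the methionine sulfoxide reductases Msra, Msrb1 and Msrb2. With the mouse as a block Sod1 dropped out (adjusted p = 0.0593, limma; range 0.00698 to 0.772). Catalase (Cat) had means of 6338 ± 278 and 2857 ± 412 (SD, n = 3 each), a difference of -0.88 ± 0.16 (SE; adjusted p = 0.00900, limma), and the glutaredoxin Glrx differed by -1.11 ± 0.17 (SE; adjusted p = 0.00526, limma). In non-tumour tissue the glutathione peroxidases Gpx3 and Gpx4 were called higher than in normal diet liver, by 0.47 ± 0.06 and 0.81 ± 0.15 (SE; adjusted p = 0.0126 and 0.0401, limma). Both calls ended without normal diet mouse 117 or 120, and that of Gpx4 also without any 1 of the 3 non-tumour samples, tumour mouse 117 or tumour mouse 186. These 2 of 16 stand beside 1.81% of all genes called higher, and with arrays scaled to the same median 6 of the 16 were called higher and all 16 estimates were above 0. Over all alternatives the adjusted p ran from 0.00611 to 0.999 for Gpx3 and from 0.0169 to 0.999 for Gpx4.

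**Figure D4:**
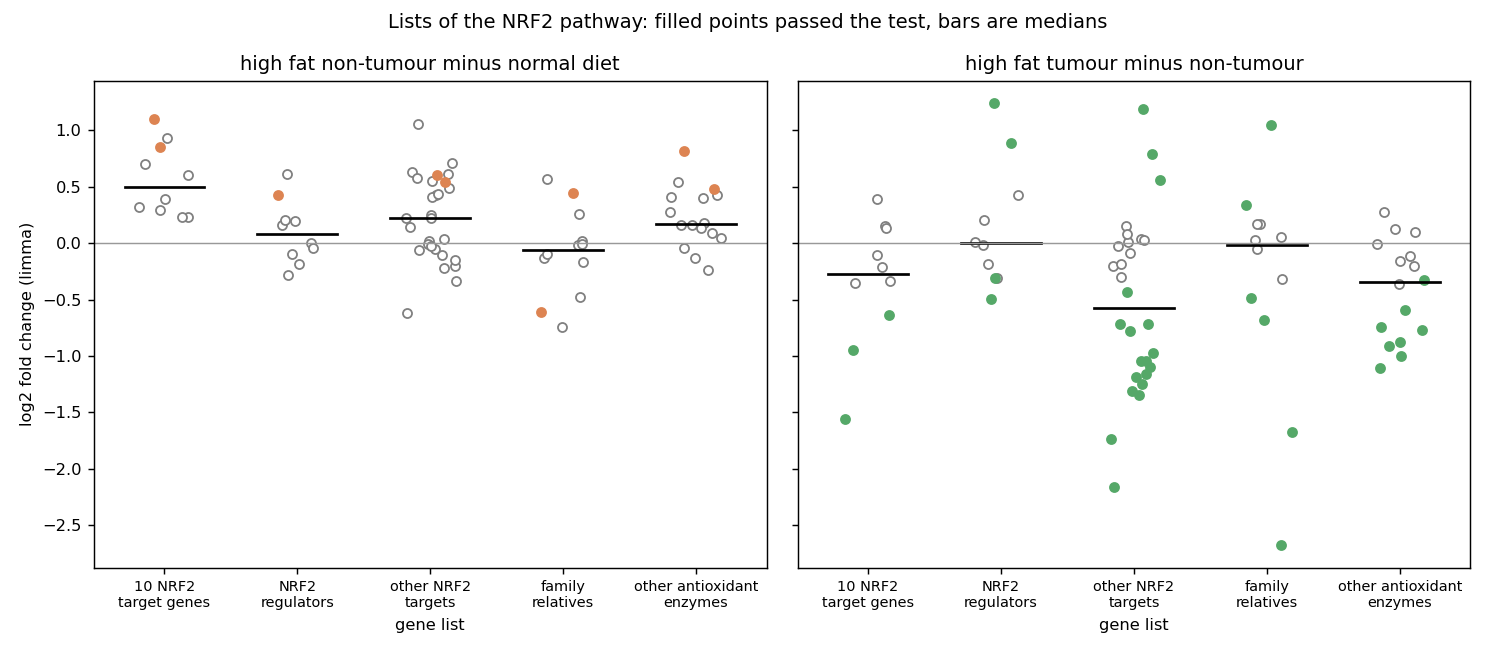
Log2 fold change (limma) of non-tumour tissue against normal diet liver (left panel) and of tumour against non-tumour tissue (right panel) for each tested gene of 5 lists: the 10 genes, the regulators, other NRF2 targets, family relatives and other antioxidant enzymes (filled points have an adjusted p below 0.05; bars are list medians; sideways spread carries no value). The medians are 0.49, 0.08, 0.22, -0.06 and 0.17 on the left and -0.27, 0.00, -0.58, -0.01 and -0.35 on the right.

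For each of the 6 genes called in a comparison, the tested genes whose pattern over the 8 arrays was most alike were taken by the root mean square difference of mean-centred log2 values. Aox1 was nearest to Ppp1r3d (0.09) and Ldhd (0.13), where the median gene lay at 0.72. Srxn1 was nearest to Lgals3bp (0.10) and Cyp2b13 (0.10), with a median of 0.61. Ephx1 was nearest to Acnat1 (0.10) and Cyp2c39 (0.11), with a median of 0.47. These medians lay near the root mean square deviation of Aox1, Srxn1 and Ephx1 from their own means (0.72, 0.60 and 0.46). For Gclm the nearest were Tlr5 and Pnpla8 (0.06 each), for Cbr3 Slc17a4 (0.12) and Gm4802 (0.14), and for Gclc Net1 and Spon2 (0.16 each). None of the 10 genes was among the 2 nearest to another of them. Since only 2 of 16799 genes were kept for each, this cannot tell whether the 10 varied together.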

How the data were processed

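RNA of 8 liver samples was hybridised to 1-colour (Cy5) TORAY arrays with 23473 probes, of which 20690 carry 1 gene symbol. The deposited intensity of each probe was recomputed from the scanner files: the authors subtracted the blank-spot mean from each spot's median and rescaled every array to a median of 25, and 81.8 to 88.5% of probes are listed per array. No genome build or scanner software version is given in the sources used here. From the scanner intensity, limma 3.58.1 in R 4.3.3 was run with normexp correction on the 2736 blank spots (offset 50), quantile normalization, 1 probe per gene (highest mean) and a filter that asked for a deposited value on each array of 1 group or more (16800 genes left). All 8 arrays entered 1 fit of 3 group means (lmFit, eBayes, 2-sided, Benjamini-Hochberg over all genes). The fit was tested on simulated data. The 2 or 3 arrays per group limit the precision.

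Tumour and non-tumour tissue of 1 number come from the same liver, and their deviations from the group means correlated at 0.44, 0.15 and 0.17 in mice 117, 186 and 1, against -0.27 to 0.03 between mice, so the numbers pair these samples. All 10 genes are named whatever their values. Other genes of a list are named where they are among the 4 largest called differences between tumour and non-tumour tissue, with Keap1, Nfe2l2 and Bach1 always. Pgd, Osgin1, Ptgr1, Taldo1, Gss, Gpx3, Gpx4 and the genes of the counts listed by name were named after their values were seen. The genes and lists were chosen with earlier results of these data known. Alternatives were the background correction, scaling, offset, deposited values with a pseudocount of 1 or 16, filter, probe rule, groups fitted, the mouse as a block, and leaving out each array.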

Additional observations from a re-analysis of the deposited data

How the results depend on the processing

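Among the 10 genes, the calls that held under the most alternatives were those of Aox1, Ephx1 and Gclm in tumour against non-tumour tissue and of Srxn1 and Aox1 in tumour against normal diet liver, which ended under 1 alternative each, the local background. There the adjusted p from limma was 0.232, 0.914, 0.964, 0.677 and 0.339. The local background rose with the spot signal (rank correlation 0.902 to 0.960) and made up 39.3 to 61.9% of the signal of bright spots, and it left 126 genes changed in tumour against non-tumour tissue, 3 in non-tumour tissue against normal diet liver and 220 in tumour against normal diet liver, with 0 of the 10 in each. Otherwise the main counts were 4268, 644 and 4679. The second was 353 with a floor of 16, 1403 with the same median (77.3% higher against 47.2%) and 1075 with the deposited values and a pseudocount of 16 (25.7% higher). Calls in tumour against normal diet liver were 46.2% higher ones, and 31.9% and 28.9% with the deposited values and a pseudocount of 1 or 16. Leaving out 1 array gave 95 to 781 genes for the second comparison and 2316 to 4439 for the third, with the fewest where a normal diet liver was left out (2316 without 117, 2479 without 120). Of the 10 genes, 5 were called in the first comparison with the same median, an offset of 16, the deposited values with a pseudocount of 16 or genes listed on all 8 arrays. In the second comparison 7 were called with the same median, 4 with an offset of 16 or the compared groups alone, 1 with the floor or no filter, and 0 to 4 without 1 array, and in the third 2 to 5 without 1 array. With the mouse number as a replicate block, 3495 genes and 4 of the 10 were changed between tumour and non-tumour tissue, and among the 10 genes and the 10 regulators it changed the calls given for Hmox1, Nfe2l2 and Maff.

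The following directions reversed, and the cause was not tested. In tumour against non-tumour tissue the local background gave 0.055 for Nqo1, -0.42 for Srxn1, 0.034 for Txnrd1, 0.0085 for Prdx1 and 0.10 for Keap1. Gclc turned to -0.073 with the same median and to -0.11 with the deposited values at either pseudocount. Without 1 array, Gclc ran from -0.053 to 0.32, Cbr3 from -0.085 to 0.28 and Keap1 from -0.15 to 0.11. In non-tumour tissue against normal diet liver the local background gave -0.96 for Gclc and -0.38 for Gclm, and the deposited values gave -0.0051 for Gclm and -0.049 for Prdx1 at both pseudocounts. In tumour against normal diet liver the local background gave -0.050 for Hmox1 and 0.19 for Txnrd1. The same median gave 0.012 for Txnrd1 and -0.096 for Prdx1, and the deposited values gave -0.58 for Prdx1. Without 1 array, Txnrd1 ran from -0.11 to 0.0053 and Prdx1 from -0.063 to 0.17. Of 550 alternative estimates of the 10 genes, 458 kept direction and side of the threshold, 31 gained a call, 36 lost one and 25 reversed. Comparisons with normal diet liver rest on 2 livers, whose spread is estimated mostly from the high fat diet samples.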
